A study of Rattus norvegicus with 48 samples.

Results

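The genes described here mark the inhibitory and modulatory interneurons of the retina. They were the 10 rows of the retinal and posterior eye count tables with the symbols Gad1, Gad2, Slc32a1, Slc6a9, Th, Chat, Calb2, Calb1, Lhx1 and Onecut1, out of 32883 genes in each table. All 10 passed the filter on low counts in both tissues. RNA was sequenced in 48 libraries from 24 female Long-Evans rats, an outbred pigmented strain, with a retina library and a posterior eye library from each animal. Animals labelled Young were 3 to 4 months old. Those labelled Aged, or middle-aged in the series design, were 9 to 10 months old. At each age 6 animals had ovariectomy (OVX), the removal of the ovaries and so of most circulating oestrogen, and 6 had Sham surgery. The labels call the resulting groups by age and then surgery, as in Young Sham or Aged OVX, with 6 animals in each, and no group carried a genetic change or a drug. Ovariectomy models an abrupt surgical loss of the ovaries, and the labels give no hormone level, no time from surgery to tissue collection and no dissection batch. The numbers in the sample descriptions run group by group, so an order of handling and the groups cannot be told apart.

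Amacrine cells and horizontal cells shape the signal that photoreceptors pass to ganglion cells. Horizontal cells feed back onto rod and cone terminals in the outer retina. Amacrine cells act on bipolar and ganglion cells in the inner retina, and most of them release GABA or glycine. GABA is made from glutamate by the decarboxylases GAD67, encoded by Gad1, and GAD65, encoded by Gad2. Both GABA and glycine are packed into synaptic vesicles by the transporter VGAT, encoded by Slc32a1, and glycine is taken back up by GLYT1, encoded by Slc6a9. Small amacrine populations use a second transmitter. Th encodes tyrosine hydroxylase, the rate-limiting enzyme of dopamine synthesis, and marks dopaminergic amacrine cells. Chat encodes choline acetyltransferase and marks the starburst amacrine cells that compute the direction of motion. Calb2 encodes calretinin, a calcium-binding protein of amacrine and ganglion cells. Calb1 encodes calbindin, which is strong in horizontal cells and also present in some amacrine cells. Lhx1 and Onecut1 encode transcription factors of horizontal cells, and Onecut1 is also made by ganglion cells. Slc18a3, the vesicular acetylcholine transporter gene, lies inside the Chat locus, so reads of these overlapping genes can be mixed. The library protocol also describes no strand marking.

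The promoters are shown first because the design removes ovarian oestrogen, whose receptors bind DNA. RefSeq (build GRCr8) gave a window for 7 of the 10 genes, and Calb1, Calb2 and Onecut1 had no entry. The 250 bases before each start were searched on both strands for the oestrogen response element GGTCANNNTGACC, for its core GGTCA, which the element contains, and for the cyclic AMP response element TGACGTCA. The complete oestrogen element was in 0 of the 7 windows and in 0.0239% of all 33469 promoters. Its core was in 2 of the 7, those of Slc32a1 and Chat, and in 35.4% of all promoters. The cyclic AMP element was in the Th window alone among the 7, from position -69 to -62 before the start, and in 1.59% of all promoters. These matches describe letters and are not evidence of binding. The windows of the 3 genes with a match follow, 5′ to 3′ on the gene's strand, with the matched motif in capitals.
Slc32a1, chr3:167686995-167687244, plus strand: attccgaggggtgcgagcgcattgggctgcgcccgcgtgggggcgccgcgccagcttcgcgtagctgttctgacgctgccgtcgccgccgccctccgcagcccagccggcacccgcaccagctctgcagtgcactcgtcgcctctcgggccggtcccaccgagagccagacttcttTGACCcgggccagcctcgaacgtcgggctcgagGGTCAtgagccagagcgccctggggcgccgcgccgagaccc
Chat, chr16:7723417-7723666, minus strand: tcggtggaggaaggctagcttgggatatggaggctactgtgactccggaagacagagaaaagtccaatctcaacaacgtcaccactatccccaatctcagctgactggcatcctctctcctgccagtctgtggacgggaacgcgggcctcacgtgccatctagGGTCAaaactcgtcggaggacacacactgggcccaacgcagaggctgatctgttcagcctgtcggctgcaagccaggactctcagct
Th, chr1:207508219-207508468, minus strand: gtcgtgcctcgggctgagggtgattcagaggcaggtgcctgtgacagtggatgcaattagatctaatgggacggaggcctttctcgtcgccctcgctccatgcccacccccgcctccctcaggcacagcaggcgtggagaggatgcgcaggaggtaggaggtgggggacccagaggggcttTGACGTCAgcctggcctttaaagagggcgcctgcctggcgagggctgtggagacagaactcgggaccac
Slc32a1 had a reverse copy of the core at -74 to -70 and a forward copy at -41 to -37, and Chat had a forward copy at -87 to -83. GC content ran from 57.2% in Chat to 73.6% in Slc32a1 among the 7 windows, against a median of 51.2% over all promoters.

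Retina libraries held between 12916146 and 30737547 counts and posterior eye libraries between 11470945 and 22971367. The biological coefficient of variation over all genes was 12% in the retina and 33.4% in the posterior eye. Levels are CPM (counts scaled to a common library total) on TMM-scaled totals, where TMM is a scaling of library size that resists a few very abundant genes, and genes are not ranked against each other because CPM does not correct for transcript length. In these bulk libraries fewer cells of a type and less RNA per cell cannot be told apart. Retina libraries varied in markers of neighbouring tissue. The summed level of 9 lens markers ranged from 6162 to 66230 CPM in Young animals and from 4013 to 42060 CPM in Aged animals, and that of 8 pigment epithelium markers from 235.9 to 311 CPM in Aged OVX and from 265.2 to 767.4 CPM in the other groups. None of these markers was at 0 in all libraries of a group.

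None of the 10 genes was called in the retina, either after ovariectomy at each age or between ages. In edgeR's quasi-likelihood test, with 1 mean per group and Benjamini-Hochberg adjustment over 15481 genes, 0 members passed an adjusted p of 0.05 in each of 7 comparisons. Few genes of the whole retina passed either. The share of all tested genes called was 0.0194% for OVX against Sham in Young animals, 0.00646% in Aged animals and 0.0517% for the mean of both ages. It was 0.0388% for Aged against Young in Sham animals, 0.0711% in OVX animals, 0.736% for the mean of both surgeries and 0.0452% for the interaction of OVX and age. At an unadjusted p under 0.05, 0 members were found for OVX in Young animals (11.7% of all genes), OVX in Aged animals (6.47%), the mean OVX effect (10.8%) and the interaction (6.21%). With a covariate for the level of pigment epithelium markers, Slc32a1 was at that level for OVX in Young animals, at 0.24 ± 0.09 log2 units (edgeR adjusted p = 0.328), and for the interaction, at -0.36 ± 0.16 (adjusted p = 0.851). The share of all genes at that level was not counted with this covariate. Without the covariate the members at that level were 3 for age in Sham animals (10.7% of all genes), 2 for age in OVX animals (9.23%) and 5 for the mean age effect (12.9%). DESeq2 also called 0 members in each retina comparison, with no adjusted p for 5 members in the mean OVX comparison.

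**Figure D1:**
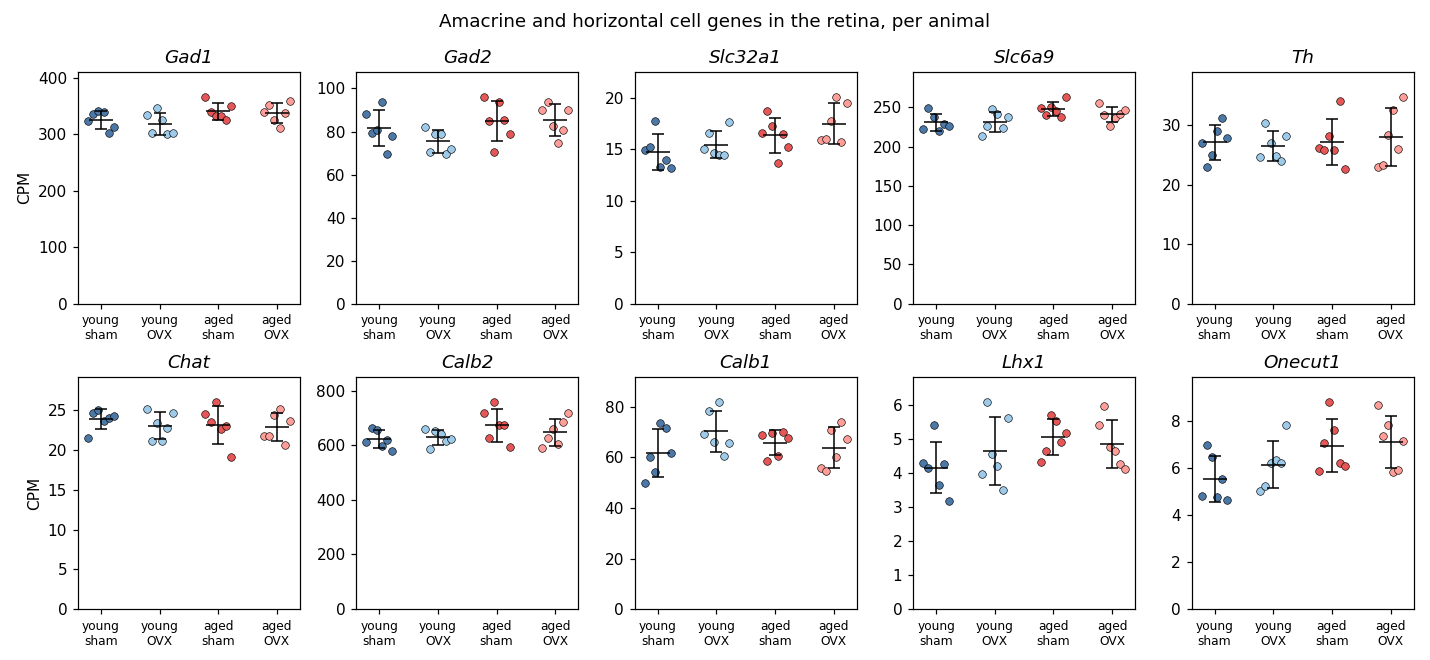
Level of each gene in the retina of each animal, in CPM on a linear axis from 0, for the 4 groups of 6. Points are animals, and the black dash and bars are the group mean and SD. In all 60 pairs of groups, 6 for each of the 10 genes, the ranges overlapped. The share of all genes with such overlap was not counted.

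Gad1 was among the steadiest of the set, with a within-group coefficient of variation of 5.2%. It had a lowest, median and highest level of 302, 329 and 342 CPM in Young Sham retinas. The same values were 300.5, 313 and 347 CPM in Young OVX. They were 325, 336 and 367 CPM in Aged Sham and 311, 338 and 360 CPM in Aged OVX. Every pair of groups overlapped, and over all 24 retinas the highest Gad1 level was 1.22 times the lowest. The mean OVX difference of Gad1 was -0.02 ± 0.03 log2 units (SE; adjusted p = 0.82, edgeR), with a 95% interval of the ratio from 0.941 to 1.03. The mean age difference was 0.08 ± 0.03 log2 units (adjusted p = 0.274, unadjusted p = 0.0222, edgeR), and 11 of 12 Aged retinas were above the median of the Young ones.

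Gad2, which encodes the GAD form tied to synaptic vesicles, had values of 69.6, 80.0 and 93.8 CPM (lowest, median, highest) in Young Sham. They were 69.5, 75.5 and 82.1 CPM in Young OVX, 70.5, 85.1 and 96.2 CPM in Aged Sham and 74.6, 86.3 and 93.8 CPM in Aged OVX. The Young OVX retinas had the lowest mean, 75.4 ± 5.27 CPM (SD, n = 6), and their range lay inside that of the Young Sham retinas except at its lowest animal. OVX against Sham gave -0.11 ± 0.07 log2 units in Young animals (adjusted p = 0.591, edgeR) and 0.01 ± 0.07 in Aged animals (adjusted p = 0.995). The age difference was 0.18 ± 0.07 in OVX animals (adjusted p = 0.457) and 0.06 ± 0.07 in Sham animals (adjusted p = 0.838). The difference between the OVX effects at the 2 ages, 0.12 ± 0.10, did not pass the test (adjusted p = 0.852).

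The genes of transmitter packing and glycine uptake were not called in any comparison. Slc32a1 had a median of 14.4 CPM (13.2 to 17.8) in Young Sham, 14.8 (14.5 to 17.6) in Young OVX, 16.6 (13.7 to 18.7) in Aged Sham and 16.9 (15.7 to 20.1) in Aged OVX. Its mean age difference was 0.17 ± 0.06 log2 units (adjusted p = 0.201, unadjusted p = 0.0107, edgeR), with 11 of 12 Aged retinas above the Young median, and its mean OVX difference was 0.08 ± 0.06 (adjusted p = 0.646). Slc6a9 had a median of 228 CPM (220 to 249) in Young Sham, 232 (214 to 248) in Young OVX, 247 (238 to 263) in Aged Sham and 241 (227 to 255) in Aged OVX. It had the smallest spread of the 10 genes, with a within-group coefficient of variation of 4.47%. Its mean age difference was 0.08 ± 0.03 log2 units (adjusted p = 0.184, unadjusted p = 0.00855, edgeR), a ratio of 1.06 with a 95% interval from 1.02 to 1.10. All 6 Aged Sham retinas were above the Young Sham median, and the groups overlapped.

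Among the 10 genes the markers of the dopaminergic and starburst populations, Th and Chat, had the group means closest to each other. Th had a median of 27.4 CPM (23.0 to 31.2) in Young Sham, 25.9 (24.0 to 30.5) in Young OVX, 26.1 (22.6 to 34.05) in Aged Sham and 27.2 (22.9 to 34.8) in Aged OVX. The widest values were in the Aged groups, and the 4 group means lay within 1.06-fold of each other. The mean OVX effect on Th was 0.01 ± 0.07 log2 units (adjusted p = 0.986, edgeR), with a 95% interval of the ratio from 0.906 to 1.11. Chat had a median of 24.2 CPM (21.6 to 25.1) in Young Sham, 23.0 (21.1 to 25.2) in Young OVX, 23.3 (19.1 to 26.04) in Aged Sham and 22.7 (20.6 to 25.2) in Aged OVX. Its 4 group means lay within 1.04-fold, and its mean OVX effect was -0.03 ± 0.05 log2 units (adjusted p = 0.844, edgeR; 95% interval of the ratio 0.914 to 1.05). Calb2 had a median of 615 CPM (580 to 663) in Young Sham, 632 (585 to 658) in Young OVX, 674 (592 to 759) in Aged Sham and 642 (589 to 719) in Aged OVX. The highest single values of Calb2 were in the Aged groups, and its mean age difference was 0.08 ± 0.04 log2 units (adjusted p = 0.402, edgeR). Its mean OVX difference was -0.02 ± 0.04 (adjusted p = 0.892).

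Of the horizontal cell genes, Lhx1 and Onecut1 had the widest intervals of the 10. Calb1 had a median of 61.05 CPM (49.7 to 73.8) in Young Sham, 67.8 (60.6 to 82.0) in Young OVX, 68.3 (58.4 to 69.9) in Aged Sham and 63.6 (54.7 to 74.1) in Aged OVX. It had the largest OVX difference of the 10 in Young animals, 0.18 ± 0.09 log2 units (adjusted p = 0.461, unadjusted p = 0.0606, edgeR), with 5 of 6 Young OVX retinas above the Young Sham median. In Aged animals the OVX difference was -0.04 ± 0.09 (adjusted p = 0.97), and the interaction, -0.23 ± 0.13, did not pass the test (adjusted p = 0.826).

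Lhx1 had a median of 4.21 CPM (3.18 to 5.41) in Young Sham, 4.39 (3.52 to 6.09) in Young OVX, 5.04 (4.32 to 5.70) in Aged Sham and 4.70 (4.12 to 5.97) in Aged OVX. Its counts ran from 55 to 144 per retina library, so counting error adds to its spread, and its mean OVX difference of 0.06 ± 0.10 log2 units had a 95% interval of the ratio from 0.904 to 1.19 (adjusted p = 0.88, edgeR). All 6 Aged Sham retinas were above the Young Sham median of Lhx1, an age difference of 0.28 ± 0.14 (adjusted p = 0.475). Onecut1 had a median of 5.17 CPM (4.66 to 7.00) in Young Sham, 6.21 (5.01 to 7.81) in Young OVX, 6.64 (5.87 to 8.81) in Aged Sham and 7.24 (5.84 to 8.66) in Aged OVX. Its group means ordered from Young Sham through Young OVX and Aged Sham to Aged OVX, with overlap between every pair. It had the largest mean age difference of the 10, 0.27 ± 0.09 log2 units or a ratio of 1.21 with a 95% interval from 1.06 to 1.38 (adjusted p = 0.175, unadjusted p = 0.00769, edgeR), and 11 of 12 Aged retinas were above the Young median. Its mean OVX difference was 0.09 ± 0.09 (adjusted p = 0.764).

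**Figure D2:**
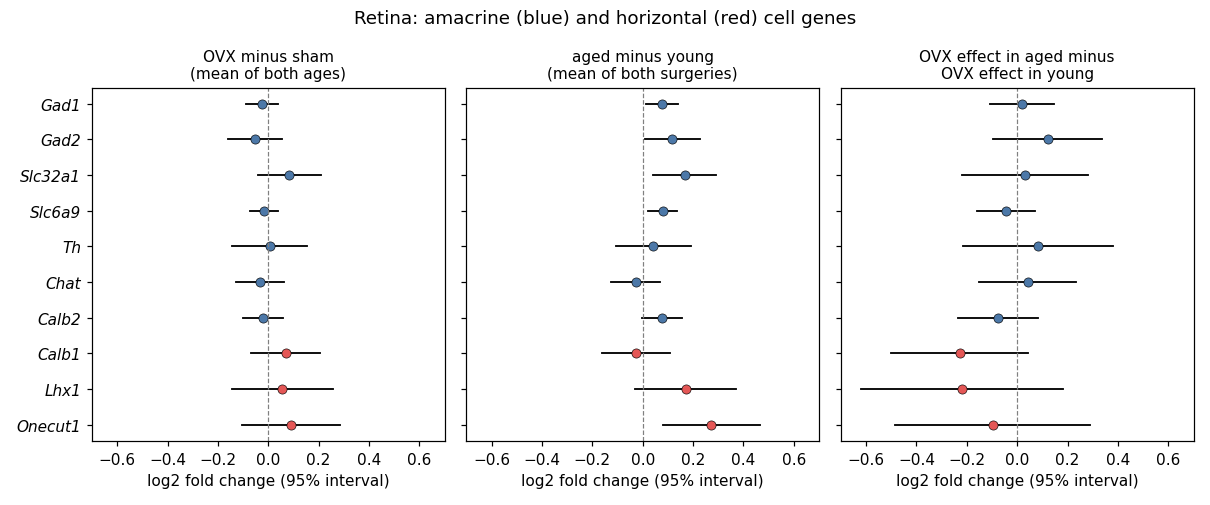
Log2 fold change of each gene in the retina with its 95% interval from edgeR, for the mean OVX effect, the mean age effect and the difference between the OVX effects at the 2 ages. Amacrine cell genes are blue and horizontal cell genes red. Every interval for OVX includes 0, and for age those of Gad1, Gad2, Slc32a1, Slc6a9 and Onecut1 do not, before adjustment for the number of genes tested.

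For the mean age effect 8 of the 10 genes were above 0, with a median of 0.08 log2 units against 0.00 for all tested genes, and Chat and Calb1 were below 0. For the mean OVX effect 5 were above and 5 below 0, with a median of -0.01. Lens markers moved with age in the same libraries. All 9 were lower in Aged retinas (median -1.06 log2 units), 8 at an unadjusted p under 0.05, and none was called. Pigment epithelium markers were called in other comparisons of the same libraries. Ttr, which encodes transthyretin, averaged 85.3 CPM in Young Sham, 157.6 in Young OVX, 146.4 in Aged Sham and 50.5 in Aged OVX. Ttr and the opsin gene Rgr fell with age in OVX animals, at -1.64 ± 0.29 and -1.51 ± 0.27 log2 units (adjusted p = 0.019 each, edgeR), 2 of the 8 markers. For the interaction 3 of the 8 were called, Ttr at -2.42 ± 0.40 (adjusted p = 0.0138), Rgr at -2.36 ± 0.38 (adjusted p = 0.0127) and the visual cycle gene Rpe65 at -2.09 ± 0.39 (adjusted p = 0.0406). Their part in the values of the members in those comparisons was not tested beyond the covariate. With the lens level as a covariate, the members at an unadjusted p under 0.05 for age were 2, Slc32a1 and Onecut1, instead of 5, and 9 were above 0, Calb1 included, and with that of the pigment epithelium they were 3, Gad2, Slc6a9 and Onecut1. The share of all genes at that level was not counted in the covariate fits, so these counts cannot be read against it. With the lens covariate the number of all genes called for the mean age effect fell too. Over all recomputed retina fits the smallest adjusted p of any member was 0.106.

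Genes around the members in the same cells and pathways were also mostly uncalled. Of 20 further amacrine cell genes tested, 14 were above and 6 below 0 for age (median 0.04) and 12 were above and 8 below 0 for OVX (median 0.02), and none was called in any retina comparison. The 2 with the smallest p were Sox2, a transcription factor of cholinergic amacrine cells and Müller glia, at 35.2 ± 3.29 CPM in Young OVX and 28.7 ± 0.819 in Aged OVX (SD, n = 6; -0.30 ± 0.07 log2 units, edgeR adjusted p = 0.0902), and Bhlhe22, a transcription factor of amacrine and bipolar subsets (age in Sham animals 0.27 ± 0.08, adjusted p = 0.207). Of 8 further horizontal cell genes tested, 4 were above and 4 below 0 for age, and 1 rose. Slc4a3, an anion exchanger gene of horizontal cells and Müller glia, averaged 74.5 ± 1.52 CPM in Young Sham, 79.1 ± 2.82 in Young OVX, 84.5 ± 6.68 in Aged Sham and 87.3 ± 3.20 in Aged OVX (SD, n = 6), a mean age difference of 0.16 ± 0.03 log2 units (adjusted p = 0.0134, edgeR). It was called in all 24 fits without 1 library (adjusted p from 0.00872 to 0.0268) but not with the lens level as a covariate (adjusted p = 0.0586).

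Of 22 GABA and glycine receptor genes, 19 were above and 3 below 0 for age, with a median of 0.08 log2 units, and 9 were above and 13 below 0 for OVX, with a median of -0.02. None was called. Gabrr2, a subunit of the GABA-C receptor of bipolar cells, averaged 60.9 ± 5.31 CPM in Young Sham and 70.3 ± 3.36 in Aged Sham (SD, n = 6; 0.21 ± 0.06 log2 units, edgeR adjusted p = 0.186). Glra4, a glycine receptor subunit, was near 2 CPM with a mean OVX difference of -0.46 ± 0.13 (adjusted p = 0.214). Of 11 genes for GABA and glycine uptake, breakdown, chloride balance and synapse assembly, none was called, with 7 above and 4 below 0 for age and 4 above and 7 below 0 for OVX. The smallest p were those of Nlgn2, an adhesion protein of inhibitory synapses (OVX in Aged animals 0.34 ± 0.10, adjusted p = 0.558), and Gphn, the scaffold gephyrin (mean OVX -0.08 ± 0.03, adjusted p = 0.328).

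Of 14 other dopamine genes, none was called, and 6 were above and 8 below 0 for both age and OVX. The D1 receptor gene Drd1 had a mean OVX difference of -0.11 ± 0.04 log2 units (adjusted p = 0.327, edgeR), and Drd5, the D5 receptor gene, -0.20 ± 0.08 (adjusted p = 0.336). Of 17 other acetylcholine genes, 12 were above and 5 below 0 for age and 8 were above and 9 below 0 for OVX, with none called. The nicotinic subunit gene Chrna6 had an OVX difference in Young animals of -0.14 ± 0.04 (adjusted p = 0.169), and Chrnb2 a mean age difference of 0.14 ± 0.04 (adjusted p = 0.124). In other neurons of the same retinas, with age 1 ganglion cell gene of 8 rose (Nefl, 0.16 ± 0.03, adjusted p = 0.0212) and 1 cone gene of 7 fell (Opn1sw, -0.44 ± 0.10, adjusted p = 0.0428). With the lens covariate neither was called (adjusted p = 0.0572 for Nefl and 0.093 for Opn1sw, edgeR). With the pigment epithelium covariate Nefl was called (adjusted p = 0.041, edgeR) and Opn1sw was not (adjusted p = 0.0778). In the 24 fits without 1 library Opn1sw was called in 9 and Nefl in 24. Of the 10 rod genes none was called.

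With group means removed, the 10 genes did not vary as a block among the 24 retinas. Of their 45 pairs, 21 had a Pearson r above 0, and 1 pair passed Benjamini-Hochberg adjustment over the 45, Gad1 with Gad2. Their r was 0.67 (permutation p = 0.00063 within groups, two-sided, adjusted p = 0.0284) and Spearman's rho 0.659 (adjusted p = 0.0468), and r was 0.642 without the 2 libraries farthest from the median of Gad1. The next highest were Chat with Calb2 (r = 0.503), Slc6a9 with Onecut1 (r = 0.487), Slc32a1 with Chat (r = 0.476) and the horizontal cell pair Lhx1 with Onecut1 (r = 0.466), each with a permutation p adjusted to 0.307. Slc32a1 had an r of -0.072 with Gad1 and -0.29 with Gad2, the enzymes that make the transmitter it packs (adjusted permutation p = 0.863 and 0.59).

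**Figure D3:**
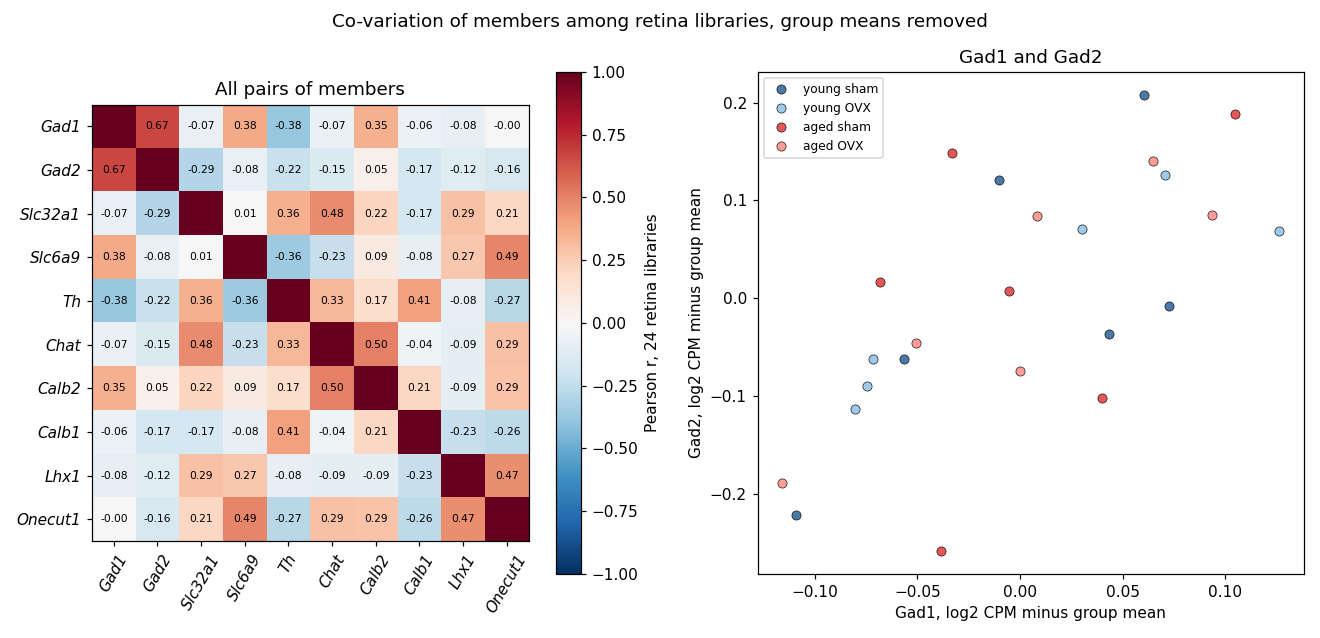
Left, Pearson r of log2 CPM, with group means removed, for each pair of genes over 24 retina libraries. Right, Gad2 against Gad1 per animal on the same scale, in log2 units from the group mean. Gad1 with Gad2 has the highest r of the 45 pairs, 0.67.

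The genes most like each member over the 24 retinas, again by Pearson r with group means removed and among 12018 genes, were mostly not markers of these cells. They are a description, since libraries also share RNA quality and depth. Gad1 was closest to Dnal1 (r = 0.807), Tmeff1 (0.781) and Gpm6a (0.78), and Gad2 to Ythdf3 (0.875), Ipo11 (0.863) and Nr1d2 (0.862). Slc32a1 was closest to Rfc4 (0.74), Kif19 (0.685) and Atg9a (0.673), and Slc6a9 to Sfpq (0.77), Terf2 (0.675) and Doc2g (0.641). Th was closest to Csad (0.776), Arhgef4 (0.773) and Pja1 (0.713), and Chat to Tmem246 (0.83), Sun1 (0.812) and Zscan21 (0.743). Rbbp9 (0.789) and Tceal1 (0.763) were among the closest to Calb2, and Calb1 was closest to Efemp1 (0.843), Fam107a (0.84) and Adamtsl2 (0.838). Lhx1 was closest to Zfp90 (0.674), Zfand2b (0.644) and Cep126 (0.643), and Onecut1 to Bag6 (0.811) and the endothelial genes Plvap (0.779) and Tie1 (0.751).

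The posterior eye gave the contrast. Its libraries were rich in the 6 scleral and stromal markers, at a summed mean of 6624 CPM against 27.99 CPM in the retina, and in the 8 pigment epithelium markers, at 3555 against 380.1 CPM. In a fit over all 48 libraries all 10 genes were lower there than in the retina by edgeR's test. Of all 17153 genes, 93% differed in either direction, with 7752 called lower and 8197 called higher in the posterior eye. This fit had no term for the animal and so did not use the pairing of libraries. The differences ran from -3.52 ± 0.34 log2 units for Lhx1 (adjusted p = 3.99e-13) to -1.81 ± 0.10 for Slc6a9 (adjusted p = 8.45e-21). The ranges of the tissues did not overlap for any of the 10, and the share of all genes without overlap was not counted. On the scale of that fit Gad1 averaged 36.8 CPM in the posterior eye against 316 in the retina, Calb2 71.7 against 614, and Slc6a9 64.8 against 227. For the difference of the OVX effect between tissues 0 of 10 members were called by edgeR, with 0.00583% of all genes called. At an unadjusted p under 0.05 there were 0 members, with 4.94% of all genes at that level. DESeq2 also called 0, with no adjusted p for Gad1 and Calb2. The interval of that difference ran from 0.743 to 1.29 as a ratio for Slc6a9 and from 0.201 to 2.18 for Calb2.

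Posterior eye libraries differed widely in rod markers, genes of the retina. The median level of 10 rod markers, as a percentage of the same animal's retina, ran from 0.0984% in animal 9 to 39.5% in animal 10, both Young OVX. Its mean was 13.9% in Young Sham, 11.2% in Young OVX, 11.5% in Aged Sham and 7.82% in Aged OVX, with SDs from 8.53 to 15.3 (n = 6 each). The members moved with the rod level, here the mean log2 CPM of the 10 rod markers in the posterior eye library itself. It ran from 1.68 to 9.93. Across the 24 posterior eyes the Pearson r of log2 level with the rod level ran from 0.837 for Gad2 to 0.985 for Calb2, and Spearman's rho from 0.873 for Calb1 to 0.991 for Calb2. For each of the 10 genes the two-sided permutation p was 1e-05, the smallest that 100000 resamples can give, and the same after adjustment over the 10 relations. Without the 2 libraries farthest from the median rod level, those of animals 9 and 16, r ran from 0.847 to 0.983, and within the groups of 6 from 0.744 (Gad2, Young OVX) to 0.999 (Calb2, Young Sham).

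As a percentage of the same animal's retina, 9 of the 10 genes had means from 9.23% to 13.4%, on either side of the 11.1% of the rod markers. Gad1 averaged 11.7%, Slc32a1 11.1%, Th 10.1%, Chat 10.6%, Calb2 12.0%, Onecut1 11.6%, Lhx1 9.23% and Gad2 13.4%. Lines of the members' percentage on that of the rods had slopes from 0.94 ± 0.056 for Chat to 1.13 ± 0.045 for Calb2 (SE, 24 animals) in those 8 genes. In the posterior eye of animal 9, where rods were lowest, Slc32a1, Th, Chat, Lhx1 and Onecut1 had 0 counts. Over all posterior eyes there were 20 such zeros in 8 libraries, 8 of them for Lhx1, 5 for Onecut1, 4 for Slc32a1, 2 for Th and 1 for Chat, and a count of 0 allows up to 0.136 to 0.213 CPM at 3 counts per library, for counting error only.

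Slc6a9 and Calb1 had the lowest slopes and highest intercepts of the 10, and were singled out after their values were seen. Slc6a9 was at 28.6 ± 9.21% of its retina level (SD, 24 animals), from 15.6% to 44.9%, and above the rod percentage in 24 of 24 animals. Its line had a slope of 0.754 ± 0.061 and an intercept of 20.2 ± 0.955%, and the posterior eye of animal 9 held 1018 counts of it, 23.3% of that animal's retina level. Calb1 averaged 12.9%, from 2.22% to 30.7%, with a slope of 0.673 ± 0.065 and an intercept of 5.43 ± 1.03%, and was above the rod percentage in 16 of 24 animals, as was Gad1. Gad2 was above it in 20 of 24, with an intercept of 2.53 ± 0.83% and 74 counts in the posterior eye of animal 9. Which cells of the posterior eye held these transcripts was not tested.

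**Figure D4:**
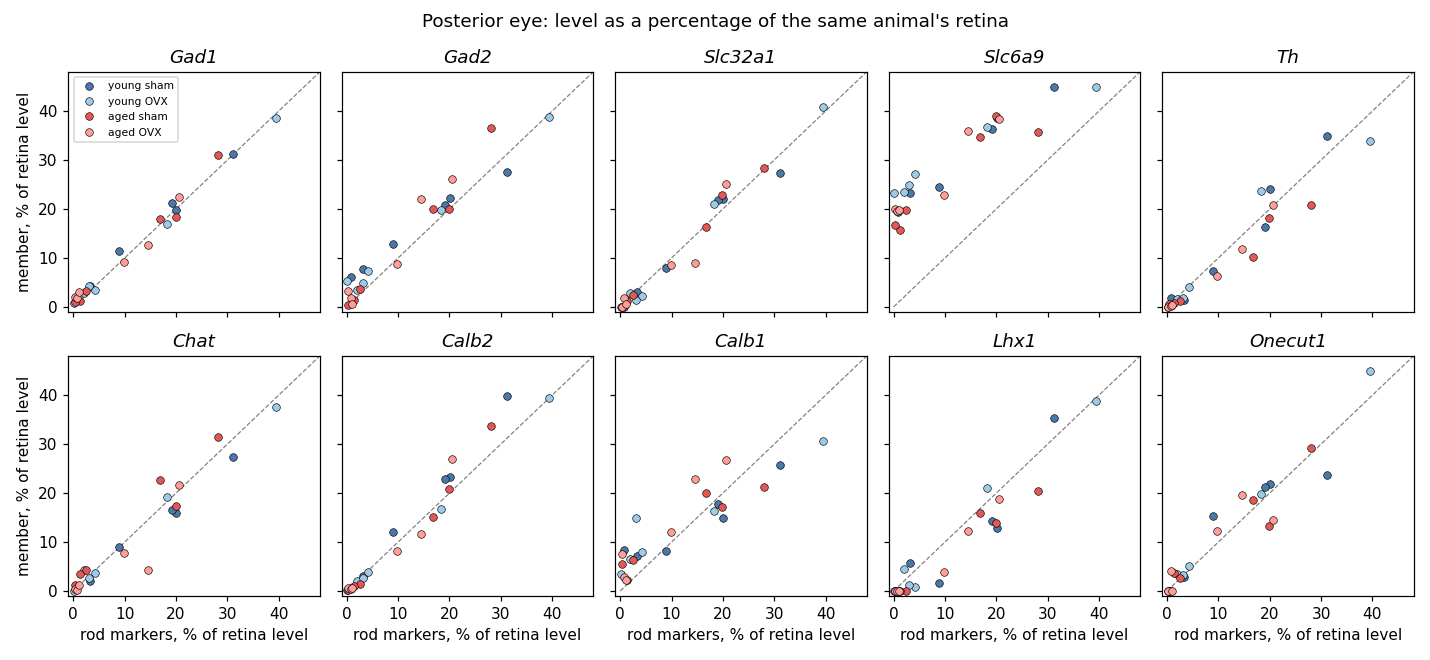
Posterior eye level of each gene against that of the rod markers, both as a percentage of the same animal's retina on linear axes, 1 point per animal coloured by group. The dashed line is equality. Most genes lie along it from 0 to about 40%, while Slc6a9 lies above it in 24 of 24 animals.

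Within the posterior eye 0 of the 10 genes were called in any of the 7 comparisons by edgeR, and 0 were at an unadjusted p under 0.05. DESeq2 also called 0, with no adjusted p for Lhx1 and Onecut1 for OVX in Young animals or for Lhx1 for age in OVX animals. Of all 16401 genes tested, the share called was 0.0061% for OVX in Young animals, 0% in Aged animals, 0% for the mean OVX effect, 0% for age in Sham animals, 0% for age in OVX animals, 0.0488% for the mean age effect and 0% for the interaction. At an unadjusted p under 0.05 the shares of all genes were, in the same order, 6.24%, 2.57%, 5.72%, 2.93%, 10.1%, 8.9% and 2.97%. For the mean OVX effect 9 of the 10 members were below 0, with a median of -0.40 log2 units against 0.00 for all genes, and standard errors from 0.20 for Slc6a9 to 0.84 for Calb2. The rod markers were also at a lower mean percentage in OVX than in Sham animals of each age. With the rod level as a covariate Gad1 was at 0.03 ± 0.20 log2 units instead of -0.51 ± 0.66. Calb2 was at -0.09 ± 0.16 instead of -0.63 ± 0.84 and Slc6a9 at 0.11 ± 0.11 instead of -0.07 ± 0.20. Gad2 was at 0.04 ± 0.36 instead of -0.42 ± 0.62 and Slc32a1 at 0.02 ± 0.25 instead of -0.39 ± 0.80. Th was at -0.08 ± 0.23 instead of -0.45 ± 0.81 and Lhx1 at 0.14 ± 0.37 instead of -0.27 ± 0.81. Onecut1 was at 0.26 ± 0.29 instead of -0.05 ± 0.69 and Calb1 at 0.24 ± 0.23 instead of 0.02 ± 0.44. None of them was called. Chat, at -0.65 ± 0.71, was at -0.42 ± 0.22 with that covariate (adjusted p = 0.617, edgeR). The share of all genes at an unadjusted p under 0.05 was not counted with that covariate. In the other comparisons with it, Chat alone of the 10 was at that level, in 3 of them. These were OVX in Aged animals at -1.02 ± 0.32 (unadjusted p = 0.00457, adjusted p = 0.9998), the interaction at -1.20 ± 0.44 (unadjusted p = 0.0118, adjusted p = 0.821) and age in Sham animals at 0.65 ± 0.30 (unadjusted p = 0.0398, adjusted p = 1). Single libraries moved the mean OVX values without the covariate by over 1.5 times. Gad1 ran from -1.05 without animal 10 to -0.22 without animal 18, and was at -0.80 without animal 19 and -0.33 without animal 1. Calb2 ran from -1.21 without animal 10 to -0.35 without animal 18, and was at -1.05 without animal 19 and -0.39 without animal 1. Chat was at -1.18 without animal 19 and -1.10 without animal 10. Slc6a9 ran from -0.16 without animal 10 to 0.01 without animal 18.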

How the data were processed

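RNA was measured in 24 retina and 24 posterior eye libraries. Per the labels' protocols, cDNA was amplified with SMART-Seq v4, fragmented and tagged by Nextera XT, and read from both ends. The submitters' processing notes name STAR 2.7.3a, HTSeq, DESeq2 and the build Rnor_6.0; the annotation and how reads were counted: not given in the sources used here. The authors deposited whole-number counts per gene, 1 table per tissue, which were used as they stand.

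Counts were filtered with filterByExpr, scaled by TMM and tested with the quasi-likelihood F test of edgeR 4.0.16 (R 4.3.3), two-sided, adjusted over all genes tested. Each SE is the absolute log2 fold change over the square root of F. CPM is given with SD over 6 animals. DESeq2 1.42.0, RLE scaling, no filter, fewer groups, marker covariates and leaving out each library were alternatives. Correlations used permutations (scipy 1.17.1; in the posterior eye on log2 of CPM plus 0.1). Only the edgeR fit was tested on simulated data, with simulated retina counts for OVX against Sham in Young animals.

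All 10 members are named. Of each further list, up to 4 called genes per comparison are named, otherwise the 2 smallest p. The members, lists and rules were chosen with earlier results of these data known. Libraries of the same animal number come from 1 animal, so they pair; their deviations from group means correlated from -0.041 to 0.283 (median 0.07, 10 of 24 above 0.1). Posterior eye names of 25 genes had become dates, and these genes are not named. Results for 2 genes are not reported here.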

Additional observations from a re-analysis of the deposited data

Results flagged for a closer look

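Single values stood apart from the other 5 animals of their group in 2 of 80 sets of 6 values (10 genes, 8 groups), both in the posterior eye and none in the retina; by chance about 1 set in 20 would be marked. Calb1 was at 23.1 CPM in animal 10 (Young OVX), against 2.10 to 9.07 CPM in the other 5. That animal's posterior eye also had the highest rod percentage, 39.5% of its retina. Chat was at 4.50 CPM in animal 19 (Aged OVX), against 0.0563 to 1.64 CPM in the other 5. The rod percentage of that posterior eye, 20.5% of its retina, was the highest of the Aged OVX group. The part of the rod level in these values was not tested.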

How the results depend on the processing

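No member was called in the retina or the posterior eye under DESeq2, RLE scaling, no filter, fits of only the groups compared, the marker covariates (pigment epithelium and lens in the retina, rods in the posterior eye) or any of the 24 fits without 1 library. DESeq2 gave no adjusted p for 5 member values in the retina, 3 in the posterior eye and 4 in the fit across tissues. With the pigment epithelium level as covariate, Slc32a1 was at 0.24 log2 units instead of 0.07 for OVX in Young animals, and changed sign to -0.12 log2 units for OVX in Aged animals, -0.08 for age in OVX animals and -0.36 for the interaction, and Chat to -0.075 for the interaction, all uncalled. A further 67 of 2065 recomputed retina values and 200 of 1991 posterior eye values changed sign by less than 1 SE, also uncalled. In the posterior eye the fits without 1 library, mainly that of animal 10, moved Onecut1 for OVX in Young animals between -0.96 and 0.47, and for age in OVX animals Gad1 between -0.90 and 0.79, Lhx1 between -1.59 and 0.70 and Onecut1 between -0.79 and 0.74. The cause was not tested. With the animal as replicate block, all 10 members stayed lower in the posterior eye, 15964 genes in all differed between tissues against 15949 without the block, and 1 gene differed in its OVX effect under either fit. In the order OVX in Young, OVX in Aged, mean OVX, age in Sham, age in OVX, mean age and interaction, DESeq2 called 62, 9, 51, 66, 68, 261 and 22 genes in the retina and 12, 0, 29, 5, 65, 67 and 0 in the posterior eye, and 10 for the OVX difference between tissues. For the mean age effect in the retina the count was 114, and it was 16 with the lens covariate, 69 with no filter and 67 to 163 without 1 library (67 without animal 6, the only one to move it by over 1.5 times). The mean OVX effect had 8, and 0 with either covariate; without 1 library it ran from 0 to 10 and was 0 in 13 of 24 fits. The other retina counts ran, without 1 library, from 0 to 7 for OVX in Young (0 in 7 fits), 0 to 1 for OVX in Aged, 0 to 24 for age in Sham (0 without animal 4 or 16, 24 without animal 13), 2 to 36 for age in OVX (2 without animal 8 or 9, 36 without animal 16) and 4 to 13 for the interaction, and with the pigment epithelium covariate they were 0, 0, 0, 2 and 0. With no filter OVX in Young had 0, with the lens covariate OVX in Aged had 0 and age in OVX 17, and with only the groups compared age in OVX had 17. In the posterior eye OVX in Young had 6 genes with the rod covariate and 0 with only the groups compared, and age in OVX had 1 under each. Without 1 library the posterior eye counts were 1 to 2 for OVX in Young, 0 to 5 for the mean OVX effect, 1 to 11 for the mean age effect (1 without animal 17 or 21) 0 to 1 for age in Sham and for age in OVX, and 0 in every fit for OVX in Aged and the interaction. Counts of 0 occurred for Lhx1 in 8 posterior eye libraries and for Onecut1 in 5, and also for Slc32a1, Th and Chat. The median library total was 18266453 counts for posterior eyes, against 17937769.5 for retinas. The part of depth in these zeros was not tested.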
